A study of Mus musculus with 24 samples.

Results

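Kidneys of Nlrp3 knockout mice were compared with kidneys of wild type mice after both had received glyoxylate, over all genes of the deposited FPKM table. NLRP3 is the sensor of an inflammasome, a protein complex that activates caspase-1 and releases IL-1 beta and IL-18. It senses crystals and cell damage, and in the kidney it has been studied in macrophages, dendritic cells and tubule cells. Glyoxylate is converted to oxalate, and calcium oxalate crystals that form in the tubule injure its epithelium, which then loses transport and oxidative genes while chemokines, injury genes and matrix genes are induced.

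The members were all 28450 features of the table, 22036 with an Ensembl gene ID and 6414 gene models added by the authors. Of these, 13020 reached 1 FPKM in at least 6 of the 24 libraries and were tested. The Gly knockout group held 6 kidneys of C57BL/6 mice labelled NLPR3-/- (the labels' spelling). They were dosed with glyoxylate acid (Gly) at 75 mg/kg per day, in 200 µl by the intraperitoneal route, over days 1 to 7, with kidneys removed after 7 days. The Gly wild type group held 6 C57BL/6 wild type kidneys treated in the same way. The saline wild type group, 6 kidneys of wild type mice injected with saline, gave the change that Gly made in wild type. The saline knockout group (6 kidneys) entered the filter, the fits of all 24 libraries and an alternative baseline, and its Nlrp3 level is given. In it the Y-linked RNA helicase gene Ddx3y stood at 9.33 FPKM in 1 library and at no more than 0.0218 FPKM in the other 5. All 12 Gly libraries and all saline wild type libraries expressed Ddx3y at 5.14 FPKM or more. The labels as given here state no age, no sex and no design of the knockout allele. Levels are in FPKM, that is, fragment numbers divided by transcript length and by library total. Differences are on the log2(FPKM + 1) scale, which understates the change of weakly expressed genes.

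The libraries were not equal in quality. The summed FPKM of the 12 Gly libraries ran from 439749 to 539018, which is no read depth, and the depth is unknown. Cytosolic ribosomal protein genes held 9.36% and 6.04% of all FPKM in Gly wild type libraries 1 and 5, 5.03% to 5.29% in the other 4 Gly wild type libraries and 3.81% to 4.89% in the Gly knockout libraries. The same libraries read lower in long transcripts. The median deviation from the group median in the longest genes, minus that in the shortest, was -1.01 and -0.39 log2 units in Gly wild type libraries 1 and 5. It was -0.02 to 0.19 in the other 4 Gly wild type libraries and -0.13 to 0.07 in the Gly knockout libraries (by their longest GENCODE transcript, at least 4720 against at most 2158 bases). Counts of 2 or more called genes in a list that moved by over 1.5 times without libraries 1 and 5 are given with and without them, a choice made after the ribosomal shares were seen. The part of this length trend in the results was not tested. For the ribosomal protein list itself, 2 of 25 genes were called lower, 5 without these libraries, 16 with all 24 libraries in the fit, 0 under median-ratio scaling and 7 under quantile normalization. The defining markers of kidney segments were present in both groups. Lrp2 of the proximal tubule ran from 74.5 to 113 FPKM in Gly knockout kidneys and 33.7 to 69.7 FPKM in Gly wild type kidneys, and Umod of the thick ascending limb from 1679 to 2115 FPKM in Gly knockout kidneys and 1344 to 2113 FPKM in Gly wild type kidneys. Among other cell types, the adrenal marker Cyp11b1 was listed at 0 in 5 of 6 Gly knockout libraries and all 6 Gly wild type libraries. The adipocyte marker Adipoq ran from 0.887 to 13.6 FPKM in Gly knockout kidneys and 1.56 to 10.5 FPKM in Gly wild type kidneys. Of the neutrophil markers, Ly6g was listed at 0 in 4 Gly knockout and 6 Gly wild type libraries. S100a8 ran from 0.576 to 4.11 FPKM in Gly knockout kidneys and 0.448 to 4.25 FPKM in Gly wild type kidneys. S100a9 ran from 0.650 to 9.44 FPKM and from 1.19 to 6.14 FPKM. These 2 were the tested neutrophil genes, and 0 were called (median log2 difference -0.10). None of the 13 T, B and NK cell genes found in the table reached the filter.

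Nlrp3 itself lay below the filter. Its level was 0.127, 0.119, 0.125, 0.144, 0.123 and 0.134 FPKM in Gly knockout libraries 1 to 6, against 0.361, 0.896, 0.4799, 0.797, 0.372 and 0.523 FPKM in Gly wild type libraries 1 to 6. Every Gly knockout library was below every Gly wild type library. The Gly knockout mean of 0.129 ± 0.0091 FPKM was 0.225 times the Gly wild type mean of 0.572 ± 0.224 FPKM (SD, n = 6 each). The log2 difference was -0.47 (exact permutation test, two-sided, p = 0.0022, the smallest it can give). The saline wild type kidneys averaged 0.0663 FPKM (0.0397 to 0.0886 FPKM), and every Gly knockout library was above that range. The saline knockout kidneys averaged 0.0961 FPKM (0 to 0.182 FPKM), so without Gly the knockout mean was not below the wild type mean. No Gly knockout library was at 0. Which exons the deposited value counts, and whether they lie in the deleted part, is not given in the sources used here. Of the 8 annotated genes on each side of Nlrp3, 5 were tested and 0 were called different between the Gly knockout and Gly wild type kidneys by limma (unadjusted p under 0.05, 0 higher and 0 lower).

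Across the transcriptome, 2168 of 13020 features (16.7%) were called different in Gly knockout against Gly wild type kidneys. A call is an adjusted p under 0.05 (limma on the 12 Gly libraries, Benjamini-Hochberg). Higher in Gly knockout were 659 features (5.06%) and lower 1509 (11.6%). In the wild type, Gly against saline changed 7640 features (58.7%), of which 6017 (46.2%) rose and 1623 (12.5%) fell. The median of that wild type change over all features was 0.26 log2 units. Median-ratio scaling moved it to -0.00 and split those calls into 3369 that rose and 3389 that fell. These comparisons share the Gly wild type libraries, so their values are set side by side and no count of shared directions is given. The 6 values of one group lay wholly below those of the other for 820 features lower in Gly knockout (6.3%) and wholly above for 313 higher (2.4%). Most differences were modest: 197 called features (1.51%) differed by at least 1 log2 unit, and the median over all features was -0.06. Median-ratio scaling split the calls into 1032 higher and 1078 lower, and quantile normalization into 1300 higher and 1380 lower, so the excess of lower calls depends on the scaling. The shares under median-ratio scaling were 7.93% higher and 8.28% lower, and under quantile normalization 9.98% and 10.6%. The called total was 1354, 1395 and 1267 without Gly knockout library 2, 3 or 5, and 4497 without Gly wild type libraries 1 and 5 together. Without these 2 libraries 6.32% were called higher and 28.2% lower. With all 24 libraries sharing 1 estimate of the spread it was 8.37% and 21.4%. With Gly knockout libraries 1 to 6 left out in turn, lower calls numbered 1330, 905, 964, 1032, 876 and 1475. Higher calls were 774, 449, 431, 514, 391 and 621. With Gly wild type libraries 1 to 6 left out in turn, lower calls numbered 1873, 1069, 1297, 1057, 2044 and 1242. Higher calls were 783, 516, 522, 538, 548 and 607. For single classes below, counts of the main fit are read against the shares of 5.06% higher and 11.6% lower. Counts with 1 library left out are read against the calls of the same fit. Genes are given as the lowest, median and highest of 6 libraries, followed by the log2 difference ± SE and the adjusted p of the same limma fit.

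**Figure D1:**
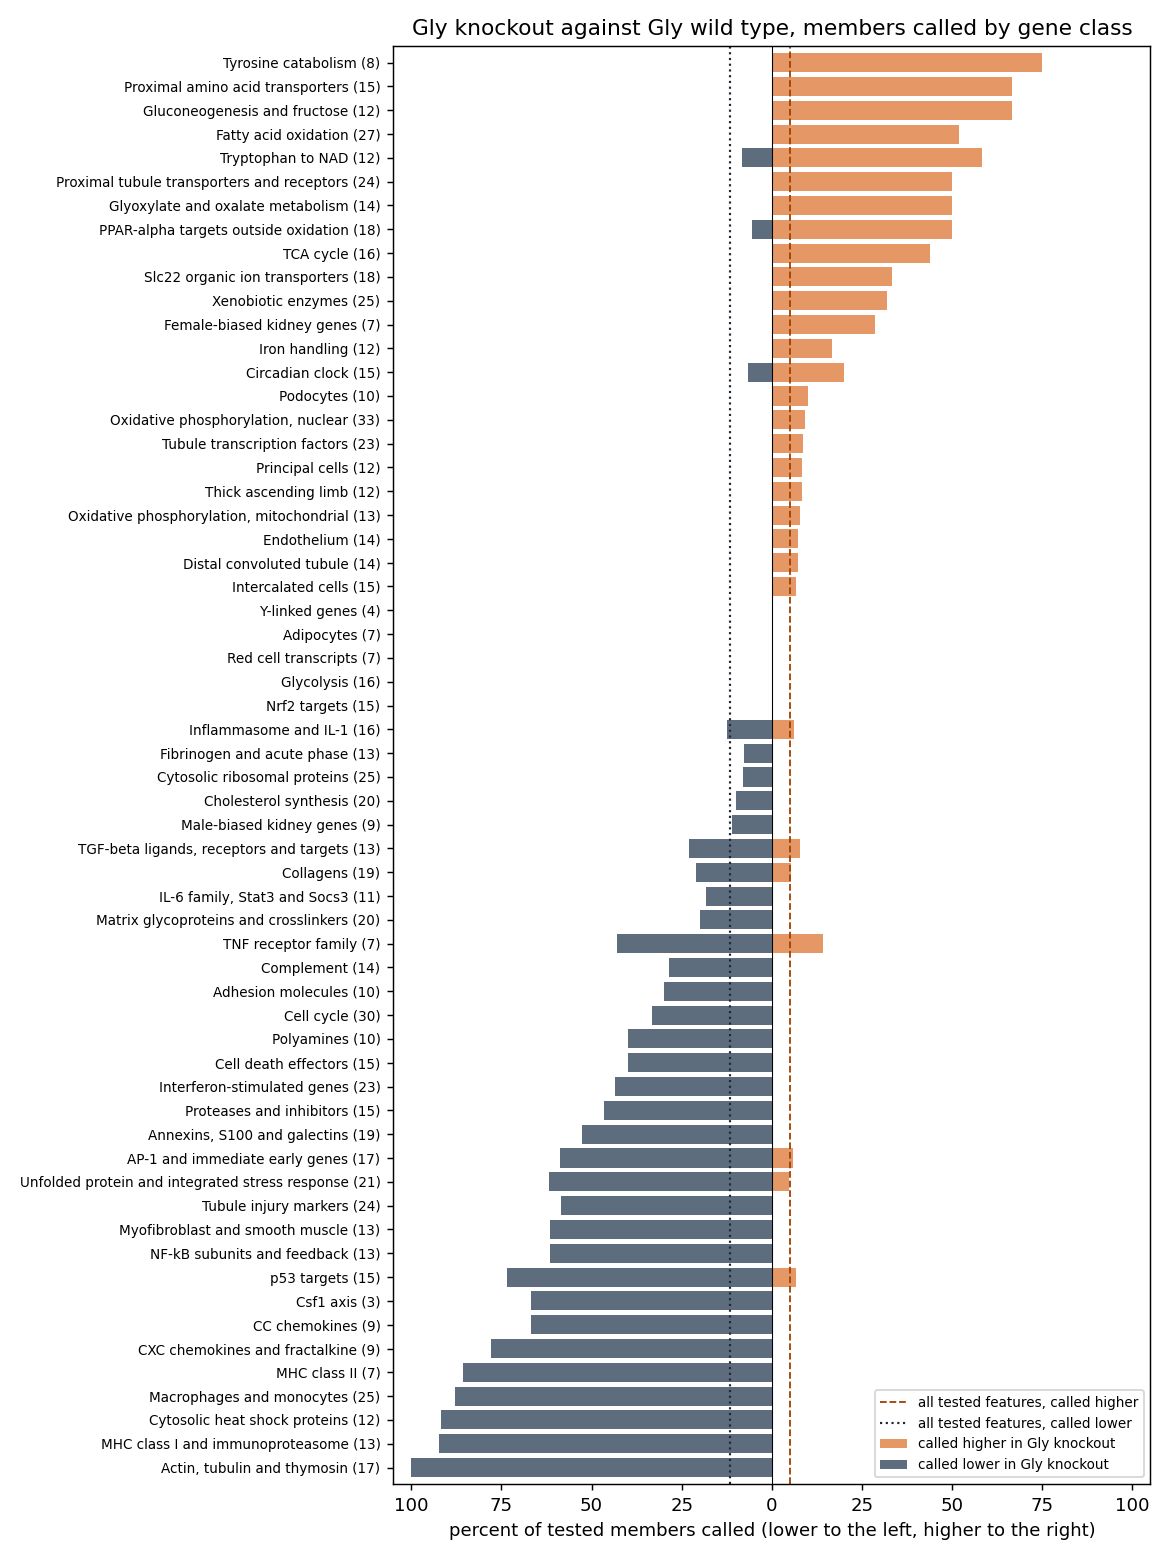
Percent of the tested members of each gene class (number tested in parentheses) called lower (bars to the left) or higher (bars to the right) in Gly knockout against Gly wild type kidneys, with lines at 5.06% higher and 11.6% lower for all tested features. All 17 actin, tubulin and thymosin genes were called lower, and tyrosine catabolism had the largest share called higher, 6 of 8.

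Chemokines that attract monocytes and neutrophils were lower in the Gly knockout. Of the CC chemokines 6 of 9 tested were called lower (median log2 difference -0.997). Of the CXC chemokines and fractalkine 7 of 9 were (median -0.73), and none of either was higher. Ccl2, the main monocyte attractant, stood at 1.64, 2.93 and 8.23 FPKM in Gly knockout, against 12.3, 18.9 and 24.3 FPKM in Gly wild type (log2 difference -2.15 ± 0.27, adjusted p = 0.000479). All 6 Gly knockout values lay below all 6 Gly wild type values, yet all were above the saline wild type range of 0 to 0.423 FPKM. Its relative Ccl7 also fell without overlap between the groups (log2 difference -1.48 ± 0.18, adjusted p = 0.000439). So did Ccl12 (log2 difference -1.48 ± 0.13, adjusted p = 0.000108). Ccl20, which attracts CCR6-bearing cells, fell as well (log2 difference -0.88 ± 0.19, adjusted p = 0.00761), with Gly knockout values of 0.361 to 1.88 FPKM that reached into the Gly wild type range of 1.83 to 3.21 FPKM. Cxcl1, a neutrophil attractant, stood at 2.81, 6.34 and 10.5 FPKM in Gly knockout, against 14.1, 16.7 and 23.7 FPKM in Gly wild type (log2 difference -1.44 ± 0.22, adjusted p = 0.00151). Cxcl2, of the same function, stood at 0.776, 1.05 and 1.51 FPKM in Gly knockout, against 3.56, 4.62 and 6.17 FPKM in Gly wild type (log2 difference -1.46 ± 0.14, adjusted p = 0.000108). The groups did not overlap for either gene. The interferon-induced Cxcl10 (log2 difference -1.14 ± 0.14, adjusted p = 0.000439) fell without overlap too, as did the membrane-bound Cxcl16 (log2 difference -0.82 ± 0.16, adjusted p = 0.00429).

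The promoters of Cxcl1 and Cxcl2 are shown because both genes fell together and both hold a match to the NF-kB motif, searched on both strands in the 250 bases before the RefSeq gene start (GRCm38.p6). The letters searched were GGGA or GGGG, then any base, then TTTCC or TTCCC. The promoters lie at chr5:90890995-90891244 and chr5:90903649-90903898, both on the plus strand, and the match is in capitals, starting 71 and 97 bases before the start.
Cxcl1: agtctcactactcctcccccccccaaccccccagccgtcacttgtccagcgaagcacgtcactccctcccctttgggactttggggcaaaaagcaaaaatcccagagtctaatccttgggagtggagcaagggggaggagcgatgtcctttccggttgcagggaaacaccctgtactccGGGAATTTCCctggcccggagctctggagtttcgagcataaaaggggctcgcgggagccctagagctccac
Cxcl2: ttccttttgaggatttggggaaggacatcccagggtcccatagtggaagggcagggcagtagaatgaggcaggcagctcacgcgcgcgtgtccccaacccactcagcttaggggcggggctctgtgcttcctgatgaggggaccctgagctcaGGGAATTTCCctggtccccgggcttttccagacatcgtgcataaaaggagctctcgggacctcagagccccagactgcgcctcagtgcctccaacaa
Both promoters carry the same letters at the match. A match was present in 3 of the 6 CXC chemokine promoters listed, those of Cxcl1, Cxcl2 and Cxcl10. It was present in 35 of 1147 promoters (3.05%) of genes called lower in the Gly knockout, 5 of 437 (1.14%) of those called higher and 167 of 9696 (1.72%) of all tested genes with a listed promoter. These shares are descriptions, and a match is not evidence of binding.

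The NF-kB subunits and their feedback genes fell in part, with 8 of 13 called lower and 0 higher (median log2 difference -0.53). Rela, the transactivating subunit, stood at 13.6, 15.05 and 16.8 FPKM in Gly knockout, against 19.2, 22.3 and 25.6 FPKM in Gly wild type (log2 difference -0.53 ± 0.09, adjusted p = 0.00214), without overlap. Relb, a subunit of the alternative pathway, was lower by a larger margin (log2 difference -0.92 ± 0.15, adjusted p = 0.00223). Its precursor partner Nfkb2 was also called (log2 difference -0.78 ± 0.14, adjusted p = 0.00245). Among growth factors and cytokines, the macrophage growth factor Csf1 stood at 4.72, 7.04 and 11.04 FPKM in Gly knockout, against 20.99, 29.6 and 32.8 FPKM in Gly wild type (log2 difference -1.88 ± 0.17, adjusted p = 0.000108), without overlap. Its receptor Csf1r was not called in the main fit (log2 difference -0.44 ± 0.18, adjusted p = 0.0992). It was called lower with all 24 libraries in the fit, without Gly wild type library 5 and without libraries 1 and 5. Il34, the other ligand of that receptor, fell (log2 difference -0.96 ± 0.18, adjusted p = 0.00461). Of the IL-6 family with Stat3 and Socs3, 2 of 11 were called lower. These were Clcf1 (log2 difference -1.16 ± 0.14, adjusted p = 0.000479) and Lif (log2 difference -0.87 ± 0.15, adjusted p = 0.00244), both cytokines of the gp130 receptor. Without Gly wild type libraries 1 and 5 the count was 7 of 11 and the median log2 difference -0.36, in place of -0.17. The feedback inhibitor Socs3 was not called (log2 difference -0.35 ± 0.20, adjusted p = 0.245), but gained a call without these libraries (adjusted p = 0.029). Tnfrsf12a, the TWEAK receptor of injured tubules, stood at 28.3, 41.2 and 89.01 FPKM in Gly knockout, against 111, 136 and 218 FPKM in Gly wild type (log2 difference -1.61 ± 0.25, adjusted p = 0.00142), without overlap.

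Transcripts of macrophages and of antigen presentation were lower. Of 25 macrophage and monocyte genes, 22 were called lower and 0 higher (median log2 difference -0.95). The count was 14 without Gly knockout library 2 or 3, or without Gly wild type library 2 or 4. Over all features, lower calls were then 905, 964, 1069 and 1057, in place of 1509. The list's summed level was 206 to 575 FPKM in Gly knockout kidneys and 376 to 1016 FPKM in Gly wild type kidneys. In whole kidney RNA, fewer macrophages and less of these RNAs per cell cannot be told apart, and the same holds for every cell type below. Fcer1g, the common chain of Fc receptors, stood at 7.37, 9.18 and 14.8 FPKM in Gly knockout, against 16.4, 29.1 and 43.05 FPKM in Gly wild type (log2 difference -1.39 ± 0.21, adjusted p = 0.00123). C1qc, a complement component made by macrophages, stood at 13.6, 18.2 and 32.8 FPKM in Gly knockout, against 28.2, 51.1 and 64.9 FPKM in Gly wild type (log2 difference -1.28 ± 0.21, adjusted p = 0.0019). Gly knockout library 6 alone was within the Gly wild type range. For Aif1, an actin-binding protein of macrophages, the groups did not overlap (log2 difference -1.34 ± 0.24, adjusted p = 0.0029).

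Of 7 MHC class II genes, which present antigen to helper T cells, 6 were called lower. Cd74, the invariant chain, stood at 160.04, 182 and 261 FPKM in Gly knockout, against 272, 426 and 1117 FPKM in Gly wild type (log2 difference -1.36 ± 0.28, adjusted p = 0.00649). H2-Eb1, a beta chain, stood at 45.4, 63.6 and 74.1 FPKM in Gly knockout, against 91.5, 161 and 346 FPKM in Gly wild type (log2 difference -1.42 ± 0.28, adjusted p = 0.00529). No Gly knockout library reached the lowest Gly wild type library in either gene, and Cd74 was highest in Gly wild type library 1. MHC class I and immunoproteasome genes were called lower in 12 of 13. Among them were the peptide transporter subunit Tap2 (log2 difference -0.82 ± 0.15, adjusted p = 0.00371) and the immunoproteasome subunit Psmb8 (log2 difference -1.08 ± 0.21, adjusted p = 0.0044). Interferon-stimulated genes were called lower in 10 of 23. Among them were the transcription factor Irf1 (log2 difference -0.73 ± 0.14, adjusted p = 0.00499) and the ubiquitin-like Isg15 (log2 difference -1.07 ± 0.23, adjusted p = 0.00755). The guanylate-binding Gbp2 was lower as well (log2 difference -0.79 ± 0.17, adjusted p = 0.00716). The class count was 4 to 6 without any 1 of Gly knockout libraries 2, 3, 4 and 5 or Gly wild type libraries 1, 2 and 4. Complement genes were called lower in 4 of 14. The count was 1 or 2 genes without any 1 of 5 libraries (Gly knockout 2, 3 and 5, Gly wild type 2 and 4). Properdin (Cfp), the stabiliser of the alternative pathway convertase, was among the called (log2 difference -1.03 ± 0.20, adjusted p = 0.00551).

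The count of lowered genes in the inflammasome and IL-1 list depended on the fit. Of 16 tested genes, 2 were called lower (median log2 difference -0.37) and 1 higher, and 1 to 5 were lower with 1 library left out. Without Gly wild type libraries 1 and 5 the count was 6 lower, and with all 24 libraries in the fit 9, against the 28.2% and 21.4% of all features given above. At an unadjusted p under 0.05 in the main limma fit, 9 of 16 were lower and 1 higher. Over all 13020 features that threshold gave 2905 lower and 1255 higher. Casp1, Il1a, Aim2, Nlrp1b, Naip2 and Naip5 were below the filter. Gsdmd, which encodes the pore-forming gasdermin D, stood at 1.38, 1.68 and 2.25 FPKM in Gly knockout, against 2.06, 3.74 and 6.69 FPKM in Gly wild type (log2 difference -0.79 ± 0.17, adjusted p = 0.00883). Il18 had an adjusted p of 0.0491 and lost the call in 11 of the 12 fits that left out 1 library. Nlrp6, a related sensor expressed in epithelium, moved the other way and stood at 10.7, 14.9 and 17.2 FPKM in Gly knockout, against 4.85, 7.45 and 9.14 FPKM in Gly wild type (log2 difference 0.91 ± 0.14, adjusted p = 0.00126), without overlap. The adapter gene Pycard was called lower with all 24 libraries in the fit, without Gly wild type library 1 or 5, and without both. In the main fit it was not called (log2 difference -0.57 ± 0.20, adjusted p = 0.0614). Il1b, named here after its values were seen, was not called either (log2 difference -0.47 ± 0.20, adjusted p = 0.121).

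Genes of tubule injury fell in the Gly knockout but stayed far above saline levels. Of 24 tubule injury markers, 14 were called lower and 0 higher (median log2 difference -0.63). Havcr1, which encodes kidney injury molecule 1, stood at 157, 46.6, 43.8, 39.1, 107 and 207 FPKM in Gly knockout libraries 1 to 6, against 385, 481, 343, 337, 398 and 373 FPKM in Gly wild type libraries 1 to 6 (log2 difference -2.23 ± 0.36, adjusted p = 0.00195). Every Gly knockout library was lower than every Gly wild type library. Gly knockout libraries 1, 5 and 6 were above 100 FPKM while libraries 2, 3 and 4 were below 50 FPKM. The saline wild type range was 0.418 to 1.55 FPKM. Sox9, a transcription factor of regenerating tubule cells, stood at 0.552, 0.877 and 1.59 FPKM in Gly knockout, against 1.67, 3.696 and 4.66 FPKM in Gly wild type (log2 difference -1.19 ± 0.18, adjusted p = 0.00137). Timp1, an inhibitor of matrix proteases, stood at 5.68, 7.33 and 19.8 FPKM in Gly knockout, against 22.3, 27.02 and 39.95 FPKM in Gly wild type (log2 difference -1.52 ± 0.25, adjusted p = 0.00219). Both fell without overlap. Lcn2 (NGAL, which binds iron siderophores) stood at 61.4, 129 and 183 FPKM in Gly knockout, against 153, 180.4 and 276 FPKM in Gly wild type and was not called (log2 difference -0.61 ± 0.23, adjusted p = 0.0822). Nor was the keratin gene Krt20 (log2 difference -0.69 ± 0.24, adjusted p = 0.0669).

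Annexins, S100 proteins and galectins were called lower in 10 of 19. Anxa3 (log2 difference -1.36 ± 0.19, adjusted p = 0.00084) and Anxa5 (log2 difference -0.88 ± 0.11, adjusted p = 0.000507) fell without overlap. So did the galectin gene Lgals1 (log2 difference -1.42 ± 0.23, adjusted p = 0.00175), while S100a6 was not called (log2 difference -0.64 ± 0.23, adjusted p = 0.0649). The cytoskeletal class was the most uniform of all, with 17 of 17 actin, tubulin and thymosin genes called lower (median log2 difference -0.69; 15 to 17 with any 1 library left out). Tmsb10, a thymosin that binds actin monomers, stood at 52.3, 59.4 and 91.3 FPKM in Gly knockout, against 128, 155 and 300.2 FPKM in Gly wild type (log2 difference -1.40 ± 0.19, adjusted p = 0.000728). Actb, cytoplasmic actin, stood at 244, 289 and 344 FPKM in Gly knockout, against 404, 489.9 and 519 FPKM in Gly wild type (log2 difference -0.69 ± 0.11, adjusted p = 0.00212). The tubulin gene Tubb2b stood at 17.5, 21.6 and 29.3 FPKM in Gly knockout, against 32.3, 41.5 and 47.1 FPKM in Gly wild type (log2 difference -0.86 ± 0.13, adjusted p = 0.00124). None of the 3 overlapped between the groups.

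**Figure D2:**
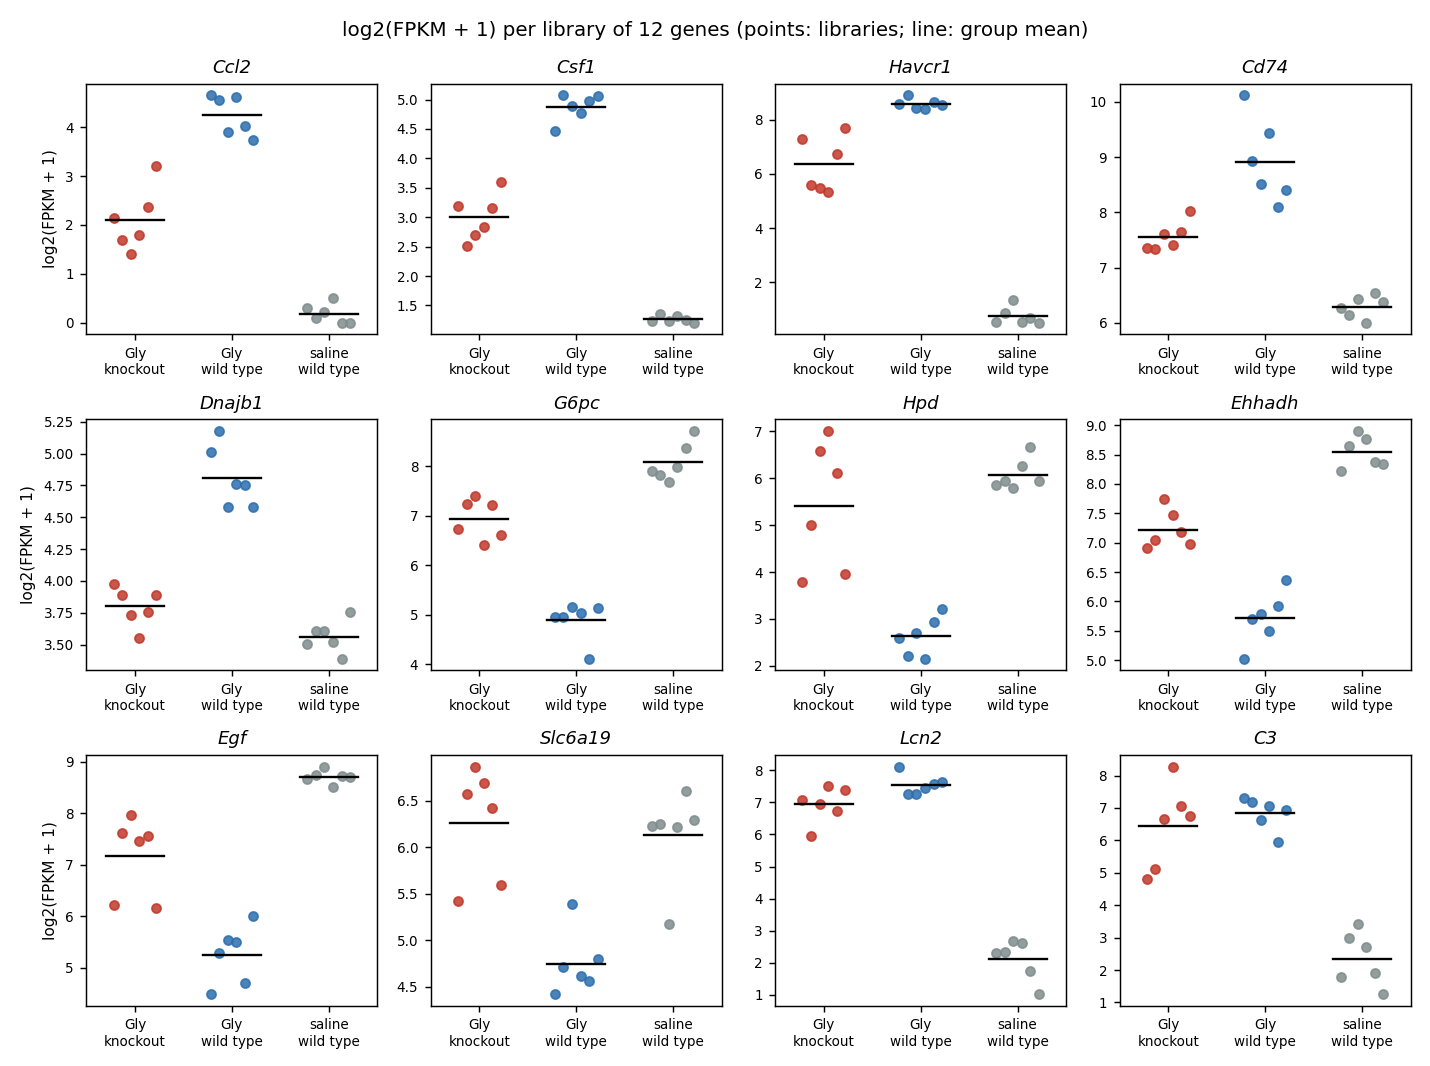
log2(FPKM + 1) of 12 genes in each library of the Gly knockout, Gly wild type and saline wild type groups (points, n = 6 each, with the group mean as a line). Ccl2, Csf1, Havcr1, Cd74 and Dnajb1 lay lower and G6pc, Hpd, Ehhadh, Egf and Slc6a19 higher in every Gly knockout than in every Gly wild type library, whereas Lcn2 and C3 overlapped.

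Stress genes were lowered across several pathways. Of the AP-1 and immediate early genes 10 of 17 were called lower and 1 higher. Of p53 targets it was 11 of 15 lower and 1 higher, and of the unfolded protein and integrated stress response 13 of 21 lower and 1 higher. Atf3, a stress-induced transcription factor, stood at 1.82, 3.39 and 5.16 FPKM in Gly knockout, against 7.77, 12.6 and 17.7 FPKM in Gly wild type (log2 difference -1.62 ± 0.19, adjusted p = 0.000439). Myc, which drives growth genes, stood at 5.94, 10.5 and 12.7 FPKM in Gly knockout, against 19.1, 23.3 and 26.2 FPKM in Gly wild type (log2 difference -1.12 ± 0.14, adjusted p = 0.000533). Gdf15, a circulating stress cytokine, stood at 7.48, 14.6 and 21.9 FPKM in Gly knockout, against 36.04, 39.5 and 53.5 FPKM in Gly wild type (log2 difference -1.47 ± 0.19, adjusted p = 0.000533). The groups did not overlap for any of these. Among p53 targets, Pmaip1, which encodes the BH3-only protein Noxa, fell (log2 difference -1.20 ± 0.14, adjusted p = 0.000439). The Akt inhibitor Phlda3 fell too (log2 difference -1.09 ± 0.15, adjusted p = 0.000842). Atf4, the central factor of the integrated stress response, stood at 34.98, 44.2 and 47.3 FPKM in Gly knockout, against 61.1, 74.4 and 103 FPKM in Gly wild type (log2 difference -0.84 ± 0.13, adjusted p = 0.00142). Its target Asns, asparagine synthetase, was called with overlapping groups (log2 difference -1.12 ± 0.24, adjusted p = 0.00745). Of 12 cytosolic heat shock genes 11 were called lower, 7 under median-ratio scaling and 7 without Gly knockout library 5. Dnajb1, a co-chaperone of Hsp70, stood at 10.7, 13.2 and 14.8 FPKM in Gly knockout, against 22.9, 26.01 and 35.2 FPKM in Gly wild type, beside a saline wild type range of 9.49 to 12.5 FPKM (log2 difference -1.01 ± 0.12, adjusted p = 0.000439). Of the cell death effectors 6 of 15 were called lower, and 10 without Gly wild type libraries 1 and 5. Among them were Bax (log2 difference -0.80 ± 0.18, adjusted p = 0.00865) and the necroptosis executor Mlkl (log2 difference -0.51 ± 0.11, adjusted p = 0.00794). No Nrf2 target (antioxidant genes) of 15 tested was called in either direction, and none of 16 glycolysis genes. At an unadjusted p under 0.05 in the same limma fit, 2 higher and 4 lower Nrf2 targets and 0 higher and 2 lower glycolysis genes were found. Of all 13020 features, 1255 were higher and 2905 lower at that threshold. Leaving out Gly wild type libraries 1 and 5, 2 Nrf2 targets were called higher and 1 lower, and 2 glycolysis genes lower. With all 24 libraries, 3 Nrf2 targets and 2 glycolysis genes were called lower.

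Matrix genes differed less clearly. Of 19 collagen genes 4 were called lower and 1 higher (median log2 difference -0.55), and of 20 matrix glycoproteins and crosslinkers 4 lower and 0 higher. Without Gly wild type libraries 1 and 5, 16 collagens and 12 matrix genes were called lower. With all 24 libraries in the fit it was 13 collagens lower and 3 higher, and 7 matrix genes lower. With 1 library left out at a time, 2 to 11 collagens and 2 to 6 matrix genes were called lower. Mgp, an inhibitor of calcification, stood at 93.8, 175 and 234 FPKM in Gly knockout, against 277, 472 and 606 FPKM in Gly wild type (log2 difference -1.41 ± 0.23, adjusted p = 0.00221), without overlap. Col18a1, the source of endostatin, was called (log2 difference -0.55 ± 0.13, adjusted p = 0.013), whereas the fibrillar Col1a2 was not (log2 difference -0.63 ± 0.28, adjusted p = 0.135), at 20.3, 25.9 and 55.3 FPKM in Gly knockout, against 23.5, 56.96 and 67.7 FPKM in Gly wild type. Fibronectin (Fn1) was not called either (log2 difference -0.57 ± 0.36, adjusted p = 0.297), and its lowest Gly wild type value, 8.06 FPKM, was below all Gly knockout values. Col4a3, a chain of the glomerular basement membrane, was called higher (log2 difference 0.87 ± 0.24, adjusted p = 0.024), a call that was lost without Gly knockout library 2 or 3.

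Of TGF-beta ligands, receptors and targets 3 of 13 were called lower and 1 higher, and 7 and 6 were lower without Gly wild type library 1 or 5. Without both it was 10, and with all 24 libraries in the fit 6. Tgfb1 itself stood at 7.46, 8.903 and 13.7 FPKM in Gly knockout, against 10.6, 18.4 and 23.1 FPKM in Gly wild type (log2 difference -0.83 ± 0.17, adjusted p = 0.00593). Of myofibroblast and smooth muscle genes 8 of 13 were lower. Pdgfb, a growth factor gene of the list, stood at 9.07, 10.8 and 14.4 FPKM in Gly knockout, against 24.9, 26.2 and 33.3 FPKM in Gly wild type (log2 difference -1.26 ± 0.12, adjusted p = 0.000108). The contractile Tagln was lower without overlap (log2 difference -0.80 ± 0.18, adjusted p = 0.00938). Plaur, the urokinase receptor, fell without overlap (log2 difference -1.21 ± 0.16, adjusted p = 0.000533). Of 10 adhesion molecules 3 were called lower, 5 without Gly wild type library 5, 8 without libraries 1 and 5 and 5 with all 24 libraries. Vcam1 (log2 difference -1.43 ± 0.31, adjusted p = 0.00865) and Icam1 (log2 difference -0.71 ± 0.16, adjusted p = 0.00976) were called with overlapping groups. Over all features, lower calls were 2044 without Gly wild type library 5, in place of 1509. Of 30 cell cycle genes 10 were called lower and 0 higher, 19 without Gly wild type library 5, 21 without libraries 1 and 5 and 21 with all 24 libraries. The replication factors Pcna (log2 difference -0.60 ± 0.11, adjusted p = 0.00431) and Mcm5 (log2 difference -0.92 ± 0.19, adjusted p = 0.00716) were among them.

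Oxidative and gluconeogenic genes of the proximal tubule were higher in the Gly knockout. Of 27 fatty acid oxidation genes 14 were called higher and 0 lower (median log2 difference 0.38). Of 18 other targets of the fatty acid sensor PPAR-alpha 9 were higher and 1 lower, and of 12 gluconeogenesis and fructose genes 8 were higher and 0 lower. Ehhadh, the peroxisomal bifunctional enzyme, stood at 119.8, 138 and 212 FPKM in Gly knockout, against 31.6, 52.7 and 81.2 FPKM in Gly wild type (log2 difference 1.504 ± 0.20, adjusted p = 0.000634). Its saline wild type range was 296 to 478 FPKM, so the Gly knockout libraries lay between the other groups without overlap. Cpt2, which imports acyl groups into mitochondria, was higher without overlap (log2 difference 0.65 ± 0.09, adjusted p = 0.00114). So was the peroxisomal oxidase Acox2 (log2 difference 1.15 ± 0.14, adjusted p = 0.000479). Vnn1, a pantetheinase, stood at 40.3, 57.1 and 93.5 FPKM in Gly knockout, against 17.2, 26.4 and 31.7 FPKM in Gly wild type (log2 difference 1.19 ± 0.20, adjusted p = 0.0024). Cyp4a10, a fatty acid omega-hydroxylase, stood at 107, 186 and 351 FPKM in Gly knockout, against 24.1, 52.3 and 122 FPKM in Gly wild type (log2 difference 1.81 ± 0.40, adjusted p = 0.00927).

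G6pc, the last enzyme of gluconeogenesis, stood at 84.2, 126 and 168 FPKM in Gly knockout, against 16.4, 30.9 and 34.7 FPKM in Gly wild type (log2 difference 2.05 ± 0.20, adjusted p = 0.000121). Pck1, its first committed enzyme, stood at 361, 504 and 939.98 FPKM in Gly knockout, against 83.4, 158 and 249 FPKM in Gly wild type (log2 difference 1.78 ± 0.27, adjusted p = 0.00135). Pyruvate carboxylase, Pcx, stood at 93.7, 137 and 176 FPKM in Gly knockout, against 55.8, 65.1 and 78.3 FPKM in Gly wild type (log2 difference 1.01 ± 0.14, adjusted p = 0.000745). None of the 3 overlapped. The TCA cycle had 7 of 16 genes called higher, but 3 to 4 without Gly knockout library 3, 4 or 5 and 12 without Gly wild type library 1. It was 13 without Gly wild type libraries 1 and 5, and 13 with all 24 libraries. Suclg2, a succinyl-CoA ligase subunit, was among them (log2 difference 0.56 ± 0.09, adjusted p = 0.00223). Oxidative phosphorylation had 3 of 33 nuclear and 1 of 13 mitochondrially encoded genes called higher, counts that depended on the fit. They were 13 nuclear and 6 mitochondrial genes without Gly wild type libraries 1 and 5, beside 6.32% of all features. With all 24 libraries it was 4 and 7, and under quantile normalization 6 and 0. The nuclear count was also 0 without Gly knockout library 2 or 5 and 7 without Gly wild type library 1. Mitochondrial transcripts held 21.8% to 24.7% of FPKM in Gly knockout and 13.5% to 22.97% in Gly wild type libraries.

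Igfbp1, an insulin-like growth factor binding protein whose transcription insulin represses in liver, was among the largest rises. It had 3.64, 17.7, 21.8, 29.3, 14.1 and 7.01 FPKM in Gly knockout libraries 1 to 6 against 2.01, 1.61, 1.81, 1.895, 0.771 and 2.02 FPKM in Gly wild type libraries 1 to 6 (log2 difference 2.40 ± 0.37, adjusted p = 0.00139). The promoters of G6pc and Igfbp1 (GRCm38.p6, chr11:101367466-101367715 and chr11:7197537-7197786, both plus strand) are shown because both genes rose and each holds a match to the HNF1 motif. The letters searched, on both strands, were GTTAAT, any base and ATT. The match is in capitals and begins 221 and 60 bases before the start.
G6pc: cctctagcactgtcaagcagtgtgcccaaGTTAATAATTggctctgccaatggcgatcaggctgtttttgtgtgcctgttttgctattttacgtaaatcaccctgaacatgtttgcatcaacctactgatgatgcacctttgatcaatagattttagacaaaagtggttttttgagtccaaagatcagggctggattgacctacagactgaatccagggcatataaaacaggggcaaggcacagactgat
Igfbp1: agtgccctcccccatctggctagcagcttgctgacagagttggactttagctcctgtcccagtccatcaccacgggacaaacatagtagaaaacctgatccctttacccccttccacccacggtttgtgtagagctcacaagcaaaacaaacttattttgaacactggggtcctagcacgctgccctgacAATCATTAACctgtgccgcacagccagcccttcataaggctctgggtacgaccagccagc
The Igfbp1 match reads on the opposite strand. The motif was found in 11 of 437 promoters (2.52%) of genes called higher, 2 of 1147 (0.174%) of those called lower and 33 of 9696 (0.340%) of all tested. HNF1 factors are transcription factors of kidney tubule and liver. Matches to HNF4 (CAAAG followed by TCCA) were found in 1.14% of the promoters called higher, 0.349% of those called lower and 0.3197% of all. For AP-1 (TGANTCA) these shares were 5.95%, 5.41% and 4.37%. For the interferon element (TTTC, any 2 bases, TTTC) they were 2.52%, 3.49% and 2.58%.

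Enzymes that handle glyoxylate and its precursors, and those that degrade tyrosine and tryptophan, were also higher. Of 14 tested glyoxylate and oxalate genes 7 were called higher and 0 lower, while Agxt, Hao1 and Pycr1 were below the filter. Prodh, a proline dehydrogenase in the list, stood at 76.6, 98.1 and 158 FPKM in Gly knockout, against 43.7, 49.7 and 62.9 FPKM in Gly wild type (log2 difference 1.04 ± 0.16, adjusted p = 0.00151). Aldh4a1, the next enzyme of proline breakdown, stood at 88.7, 112 and 136 FPKM in Gly knockout, against 45.2, 67.8 and 69.8 FPKM in Gly wild type (log2 difference 0.84 ± 0.14, adjusted p = 0.00212). Hoga1, the hydroxy-oxoglutarate aldolase that releases glyoxylate, stood at 63.1, 71.03 and 81.1 FPKM in Gly knockout, against 45.6, 50.1 and 57.4 FPKM in Gly wild type (log2 difference 0.50 ± 0.09, adjusted p = 0.00381). All 3 were without overlap. Of 8 tyrosine catabolism genes 6 were called higher. Hpd, a dioxygenase early in the path, stood at 12.9, 31.1, 94.6, 128, 68.2 and 14.4 FPKM in Gly knockout libraries 1 to 6, against 5.01, 3.63, 5.47, 3.45, 6.695 and 8.24 FPKM in Gly wild type libraries 1 to 6 (log2 difference 2.78 ± 0.49, adjusted p = 0.00281). The highest Gly knockout library was 9.95 times the lowest, all 6 were above Gly wild type, and libraries 1 and 6 were the lowest. Of 12 genes from tryptophan to NAD 7 were higher and 1 lower. Kmo, kynurenine monooxygenase, was higher (log2 difference 0.96 ± 0.11, adjusted p = 0.000439), and Nnmt, which methylates nicotinamide, was lower (log2 difference -1.26 ± 0.24, adjusted p = 0.00403). The count of higher genes was 4 and 3 without Gly knockout library 3 or 5. Cyp27b1, the vitamin D 1-alpha-hydroxylase, stood at 3.95, 8.46 and 14.2 FPKM in Gly knockout, against 0.385, 1.89 and 2.37 FPKM in Gly wild type (log2 difference 1.80 ± 0.27, adjusted p = 0.00137), without overlap.

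Transport genes of the tubule rose in part. Of 24 proximal tubule transporters and receptors 12 were called higher, and of 18 Slc22 organic ion transporters 6 (10 under quantile normalization). Of 15 proximal amino acid transporters 10 were (6 and 5 without Gly knockout library 2 or 5), with 0 lower in each list. Slc34a1, the sodium-phosphate cotransporter, stood at 807, 1077 and 1346 FPKM in Gly knockout, against 472, 627 and 728 FPKM in Gly wild type (log2 difference 0.83 ± 0.15, adjusted p = 0.00333). Slc6a19, the neutral amino acid transporter, stood at 41.9, 89.5 and 116 FPKM in Gly knockout, against 20.4, 24.4 and 41.02 FPKM in Gly wild type (log2 difference 1.51 ± 0.24, adjusted p = 0.00189). Slc22a5, the carnitine transporter, stood at 67.6, 83.96 and 89.4 FPKM in Gly knockout, against 34.8, 51.4 and 54.01 FPKM in Gly wild type (log2 difference 0.80 ± 0.13, adjusted p = 0.0023). The groups did not overlap for these 3. Aqp11, an intracellular water channel, was higher (log2 difference 0.91 ± 0.10, adjusted p = 0.000214). Slc13a3, a dicarboxylate transporter, was higher too (log2 difference 0.82 ± 0.12, adjusted p = 0.00128). Beyond the proximal tubule, the counts were near the 5.06% of all features called higher. They were 1 gene each among 12 thick limb, 14 distal tubule, 12 principal cell and 15 intercalated cell genes. Without Gly knockout library 6 it was 3 distal tubule and 5 intercalated cell genes. Median-ratio scaling gave 3 and 4, quantile normalization 4 and 6, and the fit of all 24 libraries 4 and 4. Principal cells had 2 under each of these 3 settings and 0 without Gly wild type libraries 1 and 5, which gave 2 distal tubule genes. Egf, epidermal growth factor of the distal nephron, stood at 73.8, 196, 248, 174, 187 and 70.6 FPKM in Gly knockout libraries 1 to 6 against 21.3, 37.9, 45.2, 43.9, 25.05 and 62.7 FPKM in Gly wild type libraries 1 to 6 (log2 difference 1.92 ± 0.33, adjusted p = 0.00245). All Gly knockout libraries were higher, library 6 and library 1 the least. The saline wild type range was 364 to 479 FPKM.

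Smaller lists moved in both directions. Of 10 polyamine genes 4 were called lower and 0 higher. Smox, spermine oxidase (log2 difference -0.73 ± 0.12, adjusted p = 0.00183), and Srm, spermidine synthase (log2 difference -0.71 ± 0.13, adjusted p = 0.00361), fell without overlap. Aoc1, which oxidises diamines, was called with overlapping groups (log2 difference -1.48 ± 0.27, adjusted p = 0.00341). Of 15 proteases and inhibitors 7 were lower, and 4 under median-ratio scaling or without Gly knockout library 2 or 5 or Gly wild type library 6. Of 25 xenobiotic enzymes 8 were called higher and 0 lower, among them the flavin monooxygenase gene Fmo2 (log2 difference 0.91 ± 0.17, adjusted p = 0.00361). Of 15 circadian clock genes 3 were called higher and 1 lower (3 lower without Gly wild type libraries 1 and 5). The lower one was the repressor Nfil3, without overlap (log2 difference -0.65 ± 0.13, adjusted p = 0.00629). The higher ones, Tef (log2 difference 0.54 ± 0.13, adjusted p = 0.0144), Hlf (log2 difference 0.65 ± 0.17, adjusted p = 0.0205) and Cry2 (log2 difference 0.69 ± 0.17, adjusted p = 0.0154), overlapped between the groups.

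Some genes differed between the genotypes under Gly although Gly had changed them little in the wild type. Of 5305 features with a wild type Gly change of less than 0.3 log2 units in size, 90 were called, 71 higher and 19 lower in Gly knockout. These are smaller shares than the 5.06% higher and 11.6% lower of all tested features. The Gly wild type libraries served both to pick this set and to compare the genotypes, so nothing is read from its counts. Among the 8 largest of these differences was Rdh16f2, a retinol dehydrogenase relative, at 48.2, 125 and 168 FPKM in Gly knockout, against 23.4, 44.7 and 54.8 FPKM in Gly wild type (log2 difference 1.34 ± 0.29, adjusted p = 0.00837). The acyltransferase gene Acnat2 was another (log2 difference 0.81 ± 0.14, adjusted p = 0.00234). Slc38a3, a glutamine transporter, stood at 19.5, 29.8 and 37.6 FPKM in Gly knockout, against 10.6, 14.7 and 20.9 FPKM in Gly wild type (log2 difference 0.94 ± 0.19, adjusted p = 0.00548). Of its 6 Gly knockout libraries 5 were above all Gly wild type libraries. Cyp4a14 had the largest log2 difference of these, 2.12, with values of 52.3 to 484 FPKM in Gly knockout and 12.2 to 97.04 FPKM in Gly wild type. Its call was lost without Gly knockout library 3, 4 or 5 or Gly wild type library 2 or 4.

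At the other end stood genes that Gly raised and that differed little between the genotypes. Of 38 features raised by at least 3 log2 units in wild type, 28 were called lower in Gly knockout and 0 higher. C3, the central complement component, was among those least different, at 26.9, 103 and 308 FPKM in Gly knockout, against 60.4, 127 and 156 FPKM in Gly wild type (log2 difference -0.40 ± 0.47, adjusted p = 0.605). Gly knockout libraries 1 and 2 were below and library 4 was above all Gly wild type libraries. Of 118 features lowered by at least 1.5 log2 units, 68 were called higher and 0 lower. The choice of these features and the genotype comparison share the Gly wild type libraries, so nothing is read from these counts. The fibrinogen and acute phase list had a positive median, 0.37, with 0 of 13 called higher and 1 lower, ceruloplasmin (Cp, log2 difference -0.99 ± 0.22, adjusted p = 0.00909). Fga, the fibrinogen alpha chain, stood at 17.7, 59.1 and 165 FPKM in Gly knockout, against 22.7, 26.1 and 64.1 FPKM in Gly wild type and was not called (log2 difference 1.003 ± 0.42, adjusted p = 0.113). It was called higher with all 24 libraries in the fit and without Gly knockout library 2.

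The share of the wild type Gly change that was lost in the Gly knockout was computed for 45 classes whose mean moved by at least 0.3 log2 units in wild type. It is the Gly wild type mean minus the Gly knockout mean, divided by the Gly wild type mean minus the saline wild type mean, so that 0% is the level of Gly wild type and 100% that of saline wild type. Both differences use the same Gly wild type libraries, and the values are a description with no test. For the 32 rising classes the median loss was 36.1%, between -22.9% and 68.3%. For the 13 falling classes it was 58.8%, between -60.6% and 112%.

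Among rising classes, heat shock proteins lost 68.3% ± 17.2 (SD over the 6 Gly knockout libraries), and MHC class I genes 55.2% ± 13.02. The p53 targets lost 53.2% ± 11.1. CC chemokines lost 49.4% ± 20.01, MHC class II genes 49.2% ± 10.8 and macrophage genes 39.1% ± 13.6. Smaller losses were found for tubule injury markers with 25.9% ± 9.66, complement with 23.8% ± 14.8, collagens with 22.04% ± 16.1 and matrix glycoproteins with 20.4% ± 14.3. On the log2 scale most of the rise in injury and matrix transcripts was thus still present in the Gly knockout. Without Gly wild type libraries 1 and 5 the collagen and matrix losses were 32.3% and 30.9%. In summed FPKM a smaller share of the rise was left. The median sums in Gly knockout, Gly wild type and saline wild type were 339, 598 and 115 FPKM for collagens. For matrix glycoproteins they were 490, 960 and 123 FPKM, and for tubule injury markers 6005, 10003 and 782 FPKM.

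Among falling classes, glyoxylate and oxalate genes lost 112% ± 29.1 and proximal tubule transporters 107% ± 31.2 of their decline, so that their Gly knockout means stood above the saline wild type means. Under median-ratio scaling, which made the wild type decline of each larger, the losses were 69.99% and 71.7%, below the saline wild type means. Tyrosine catabolism lost 75.0% ± 16.8, the TCA cycle 72.98% ± 14.4, gluconeogenesis 66.5% ± 14.9 and fatty acid oxidation 51.3% ± 14.96. Red cell transcripts lost 11.1% ± 42.5 and Slc22 transporters 23.3% ± 38.3, spreads wider than the values. With the saline knockout group as baseline, which differs in Y-linked and sex-biased genes, the median loss was 46.4% for rising and 62.3% for falling classes, and interferon-stimulated genes lost 76.5% in place of 38.4%. On that baseline collagens lost 35.9%, matrix glycoproteins 41.2%, proximal tubule transporters 68.97% and Slc22 transporters 63.6%. Red cell transcripts lost 22.5% without Gly wild type libraries 1 and 5.

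**Figure D3:**
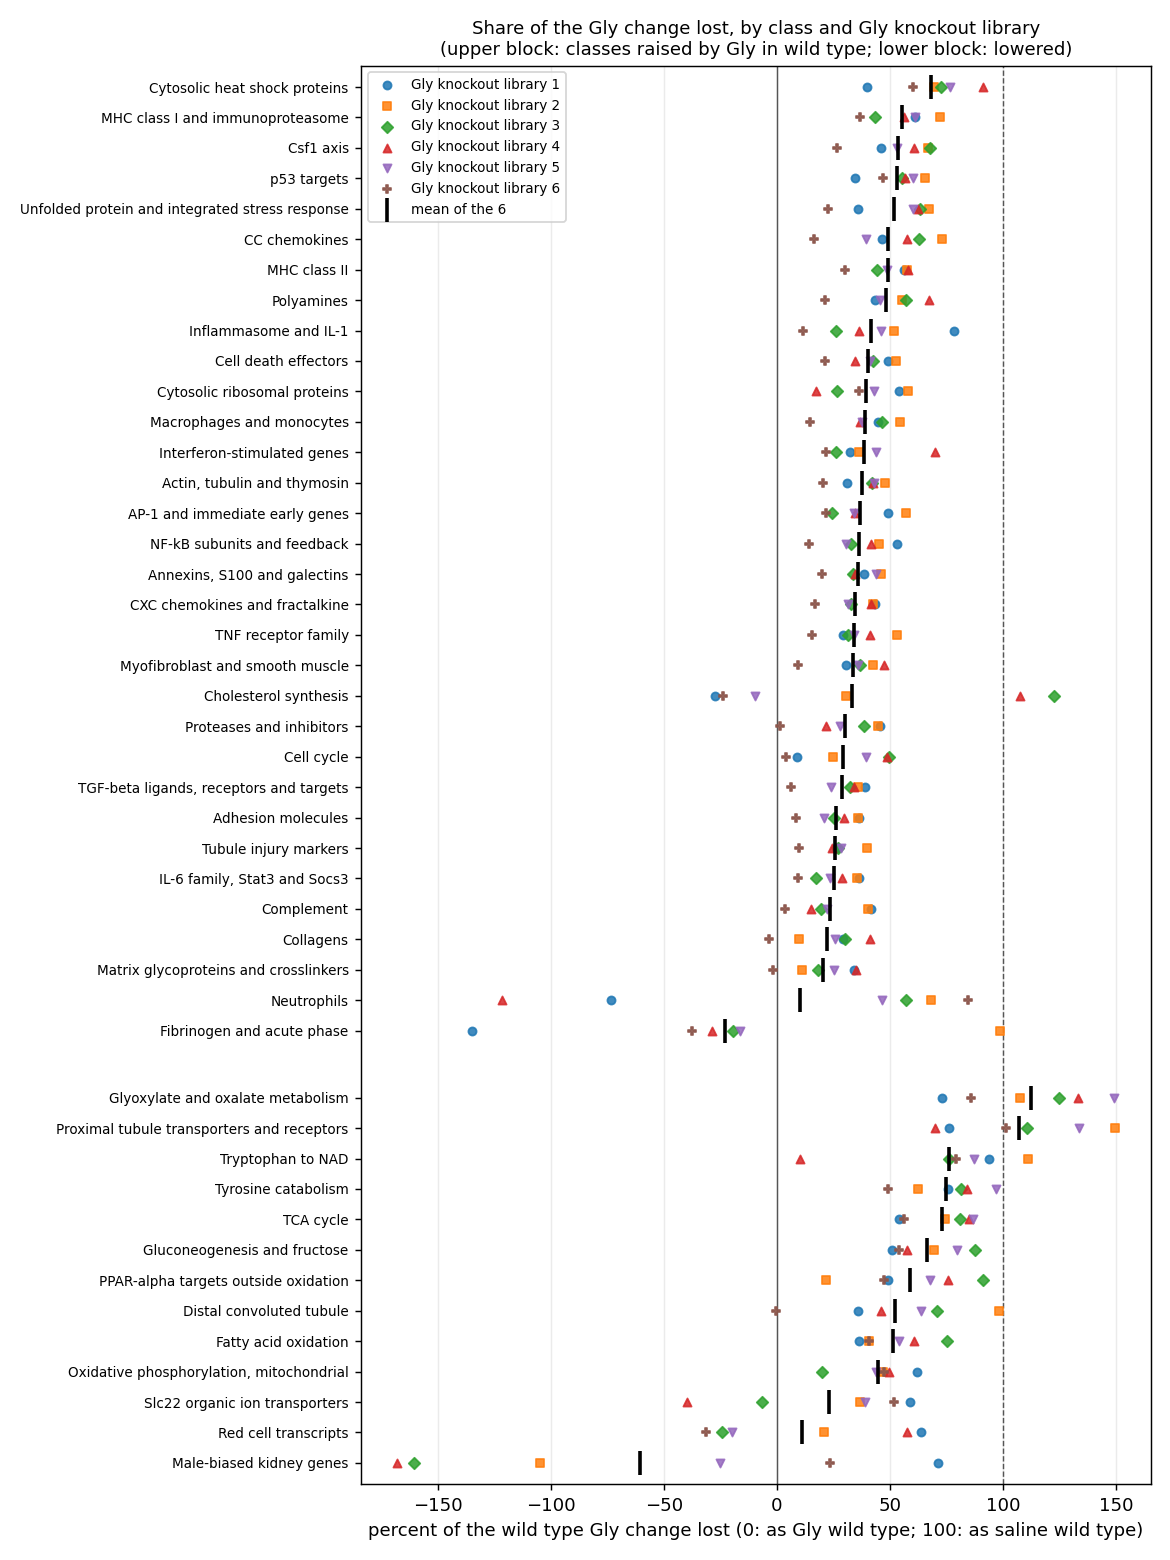
Percent of the wild type Gly change lost in each Gly knockout library (coloured symbols) and in their mean (black bar), for 32 classes raised and 13 lowered by Gly in wild type. Library 6 lies furthest left in most rising classes, and the neutrophil, acute phase, cholesterol and male-biased classes scatter most.

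The 6 Gly knockout kidneys differed in how much they had lost. The median loss over the rising classes was 38.9%, 49.95%, 35.3%, 41.2%, 38.7% and 16.03% in Gly knockout libraries 1 to 6, and over the falling classes 61.8%, 62.7%, 76.1%, 57.6%, 67.7% and 49.2%. Library 6 had the highest class mean in 26 of the 32 rising classes, and library 2 the lowest in 13. CC chemokine losses ran 46.5%, 73.1%, 63.1%, 57.4%, 39.6% and 16.4% in libraries 1 to 6, and macrophage losses 44.6%, 54.3%, 46.4%, 36.8%, 37.8% and 14.6%. Library 6 was the lowest loss in both. Fatty acid oxidation followed another order, with 36.5%, 40.6%, 75.5%, 60.6%, 53.9% and 40.9%, library 3 having the highest loss and library 1 the lowest. Cholesterol synthesis was split, at -27.5%, 30.6%, 123%, 107%, -9.43% and -23.9%, with libraries 3 and 4 below the saline wild type mean and libraries 1, 5 and 6 above the Gly wild type mean. Library 6 correlated across features at a median r of 0.979 with the Gly wild type libraries and 0.981 with the other Gly knockout libraries, and library 4 at 0.955 and 0.978. These are descriptions across features, which are not independent.

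**Figure D4:**
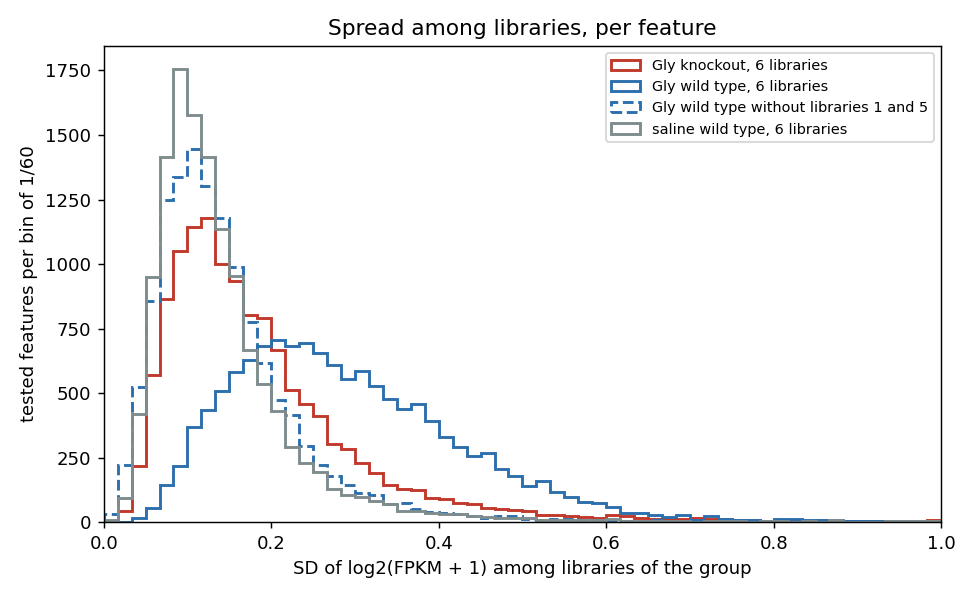
Distribution over 13020 tested features of the SD of log2(FPKM + 1) among the libraries of the Gly knockout group, the Gly wild type group with and without libraries 1 and 5, and the saline wild type group. Features with an SD above 1 (93 in Gly knockout, 55 in Gly wild type, 26 without libraries 1 and 5, 52 in saline wild type) are not drawn, and the Gly wild type curve moves left of the Gly knockout curve when libraries 1 and 5 are left out.

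Over all features, the spread among Gly knockout libraries was smaller than that among all Gly wild type libraries. The median SD on the log2 scale was 0.158 in Gly knockout, 0.270 in Gly wild type and 0.1202 in saline wild type, and 22.2% of features had the larger SD in Gly knockout. Without Gly wild type libraries 1 and 5, the Gly wild type median SD was 0.127 and 63.5% of features had the larger SD in Gly knockout, so that the order turned. Leaving out libraries that stand apart tends to lower the SD of their group. These SDs were not computed again without any Gly knockout library, so no order of the groups is read from them. The test of the spread (limma on absolute deviations from the group mean) called 0 features (0%) at an adjusted p under 0.05. At an unadjusted p under 0.05, 281 (2.16%) were wider in Gly knockout and 3140 (24.1%) wider in Gly wild type. With deviations from the group median in place of the mean, these counts were 103 and 805, so they depended on the centre used. In the test on group means, leaving out any 1 Gly knockout library gave 0 calls. At an unadjusted p under 0.05, 209 to 393 features were then wider in Gly knockout and 2394 to 3342 wider in Gly wild type. Leaving out Gly wild type library 2, 3, 4 or 6 gave 1349, 2055, 1230 and 2166 calls. Of these, 1306, 1984, 1190 and 2085 were wider in Gly wild type. Of the features named for a wide Gly wild type spread, Vcl, a focal adhesion protein, had 2.55, 30.1, 23.8, 31.5, 14.6 and 24.2 FPKM in Gly wild type libraries 1 to 6, against 14.2 to 18.1 FPKM in Gly knockout. Ifit2, an interferon-induced gene, had 0.346, 10.4, 10.5, 11.5, 6.21 and 7.13 FPKM in Gly wild type libraries 1 to 6, against 6.13 to 7.28 FPKM in Gly knockout. In both, Gly wild type libraries 1 and 5 were the lowest of the group.

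Of the 10 features averaging at least 5 FPKM with the smallest p of a wider spread in Gly knockout, 4 were in the list of male-biased kidney genes and 0 in that of female-biased ones. The other 6 were Slc22a28, Hsd3b2, Me1, Havcr1, Lars2 and Acmsd. None of the 10 passed the adjustment. The lists hold 9 and 7 of the 13020 tested features. They were chosen with earlier results of these data known, so membership in them is a description and no independent support. Slco1a1, an organic anion transporter higher in males, had 26.7, 0.315, 0.107, 0.128, 9.04 and 13.3 FPKM in Gly knockout libraries 1 to 6, against 9.71, 15.4, 15.5, 11.4, 9.904 and 8.095 FPKM in Gly wild type libraries 1 to 6 (unadjusted p of the spread 0.0001). Libraries 2, 3 and 4 were near 0, library 1 was above and libraries 5 and 6 within the Gly wild type range. Cyp2j13, a male-biased cytochrome P450, had 71.1, 14.7, 2.98, 2.69, 29.5 and 50.9 FPKM in Gly knockout libraries 1 to 6, against 39.8 to 74.9 FPKM in Gly wild type (unadjusted p of the spread 0.000385). Acsm3, an acyl-CoA synthetase of the same bias, had 169, 43.8, 20.01, 13.4, 49.97 and 144 FPKM in Gly knockout libraries 1 to 6, against 51.1 to 72.0 FPKM in Gly wild type, and differed by -0.24 in the mean (adjusted p = 0.775). For Slco1a1 and Acsm3 the Gly knockout libraries lay on both sides of the Gly wild type range, while for Cyp2j13 4 were below it and 2 within it.

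The mean log2 level of the 9 male-biased genes was 6.39, 4.03, 3.28, 3.18, 5.10 and 5.75 in Gly knockout libraries 1 to 6, against 5.22 to 5.61 in Gly wild type. Of the 9, 1 was called lower, Timd2. Without Gly knockout library 1 the count was 5, and without library 2 it was 0. Female-biased genes ran the other way in part: Prlr, the prolactin receptor, had 1.08, 38.1, 31.98, 19.3, 14.1 and 10.6 FPKM in Gly knockout libraries 1 to 6 against 1.48 to 5.94 FPKM in Gly wild type, and was not called (log2 difference 1.68 ± 0.56, adjusted p = 0.0539). Slc22a29, an organic anion transporter higher in females, had 1.62, 9.07, 10.9, 5.81, 7.63 and 2.57 FPKM in Gly knockout libraries 1 to 6 against 0.699 to 2.04 FPKM in Gly wild type (log2 difference 1.56 ± 0.32, adjusted p = 0.00652). In libraries 1 and 6 it was near the Gly wild type range. Of the Y-linked genes, Ddx3y had 8.74, 11.6, 12.9, 12.4, 9.08 and 10.3 FPKM in Gly knockout libraries 1 to 6, lowest in libraries 1 and 5, which were among the higher in male-biased genes. Eif2s3y had 18.7, 13.6, 25.1, 21.8, 20.4 and 21.6 FPKM, Kdm5d 2.098, 2.97, 3.35, 3.11, 3.23 and 3.09 FPKM and Uty 4.96, 6.15, 5.004, 6.28, 6.11 and 5.76 FPKM in the same libraries. All 4 were thus expressed in all 6 libraries, and 0 of 4 were called by limma (unadjusted p under 0.05, 0 higher and 0 lower). Gly knockout libraries 1 and 6, which had the higher Slco1a1, were also those with the higher Havcr1 and the lower Hpd, a description over 6 libraries whose part in these differences was not tested.

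**Figure D5:**
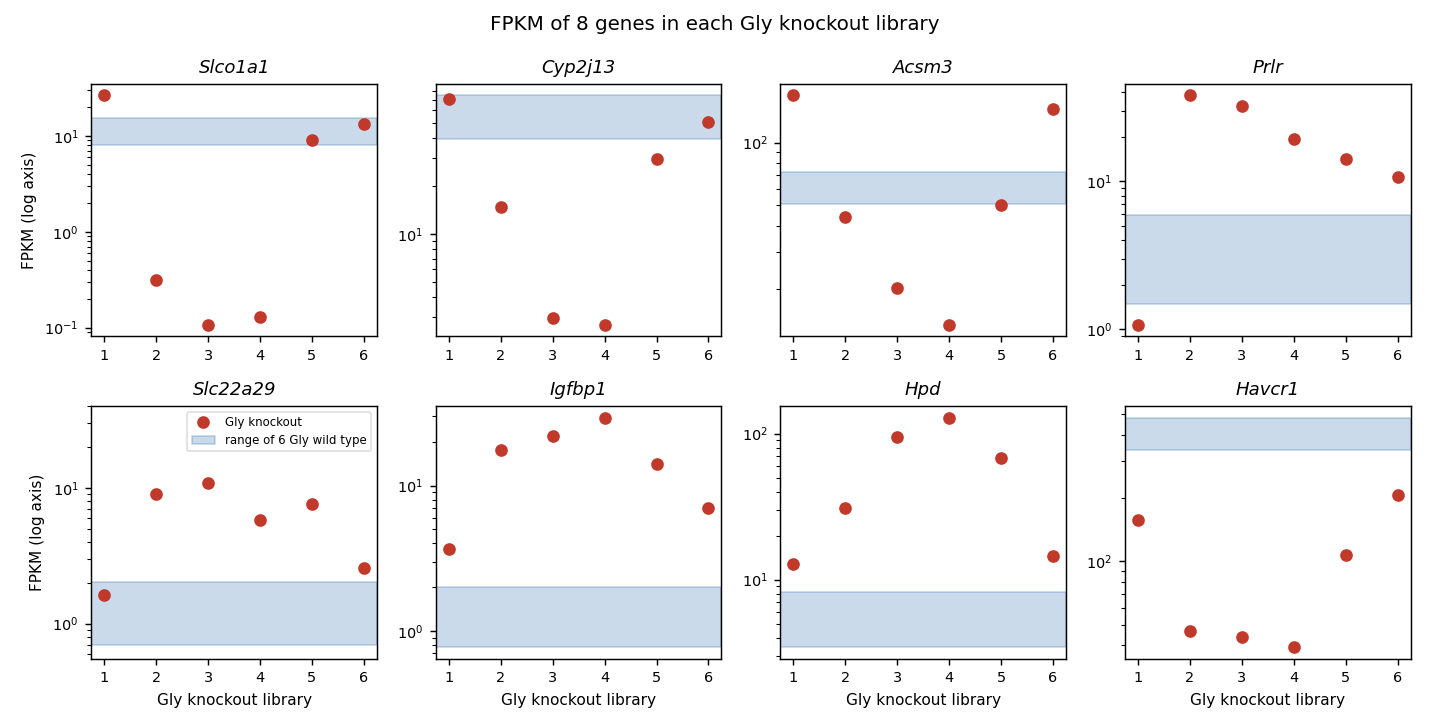
FPKM on a log axis of 8 genes in Gly knockout libraries 1 to 6 (points), with the range of the 6 Gly wild type libraries as a band. Slco1a1, Cyp2j13 and Acsm3 are low in libraries 3 and 4 and high in libraries 1 and 6, and Havcr1 is high and Hpd low in libraries 1 and 6.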

How the data were processed

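Kidney RNA was sequenced from libraries made with a TruSeq kit, per the labels' protocols. The authors deposited FPKM for 24 libraries in a single table. Bowtie 0.12.2, mm8 and mm9 appear in the submitters' processing notes without a role. Not given in the sources used here were the program behind the FPKM, its annotation and its strand setting. No per-sample column was left unmapped (0 columns). Depth is unknown: in bins of 0.01 log2 units, no more than 2.74% of the features with a mean below 0.05 FPKM had a common ratio in any pair of libraries, so no reads could be recovered, and no interval from counting is given. No pair of libraries held identical values.

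Computed here were log2(FPKM + 1) values and limma 3.58.1 fits with an intensity trend (R 4.3.3), two-sided, with Benjamini-Hochberg adjustment over 13020 features holding at least 1 FPKM in at least 6 libraries. The main fit used the 12 Gly libraries, and the wild type Gly change used the 12 wild type libraries. The spread was tested by limma on absolute deviations from group means, with group medians as an alternative. Replicates are separate samples by their labels, and the p-values reflect only the spread among them. The tests were tried on simulated data.

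The members and the 63 gene lists were chosen with earlier results of these data known. Genes named are Nlrp3 and its neighbours, the 15 largest rises and 15 largest falls without overlap at 5 FPKM or more, up to 4 of each list by smallest p, the 8 largest calls without a wild type Gly change, the 10 smallest p of the spread in each direction, and the 8 raised and 8 lowered genes least different. Of these, the text gives the ones its results turn on. FPKM of near-identical families (Cyp2d, Cyp4a, Slc22, MHC, Hbb, tubulins) can be split among members and is uncertain for 1 member. The alternatives tried were all 24 libraries or 18 without saline knockout, a replicate block, a pseudocount of 0.1, median-ratio and quantile scaling, other filters, array weights, and libraries left out. Promoters, matched by symbol for 9696 of 13020 tested features, came from RefSeq (GRCm38.p6).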

Additional observations from a re-analysis of the deposited data

Results flagged for a closer look

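A library was picked out when its gap to the nearest of the other 5 libraries of its group exceeded the share of the group's whole range that is Dixon's 95% limit for 6 samples. Of 382 groups of 6 examined, for 146 genes and 45 classes, 32 (8.38%) had such a library, where chance gives about 1 in 20, and the genes are not independent. Of the 32, 14 were on Gly wild type library 1, 7 on Gly knockout library 6 and 6 on Gly wild type library 5. Gly wild type libraries 1 and 5 were also low in long transcripts, with long minus short deviations of -1.01 and -0.39 log2 units, against -0.02 to 0.19 in the other 4, and its part in these values was not tested.

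Gly knockout library 6 stood above the other Gly knockout libraries in Clcf1 5.101 FPKM (other 5 libraries 2.78 to 3.48), Fcer1g 14.8 FPKM (other 5 libraries 7.37 to 9.905), C1qc 32.8 FPKM (other 5 libraries 13.6 to 18.5), Cfp 4.87 FPKM (other 5 libraries 1.68 to 2.25), Anxa3 30.8 FPKM (other 5 libraries 13.2 to 18.1), Col18a1 68.4 FPKM (other 5 libraries 53.7 to 58.2) and Fn1 31.4 FPKM (other 5 libraries 9.06 to 15.9). Library 6 was also the one in which the rising classes had lost the least. Gly knockout library 1 was high in Defb36 1.76 FPKM (other 5 libraries 0.347 to 0.801). Gly knockout library 3 was high in Hspa1a 26.9 FPKM (other 5 libraries 16.7 to 20.3). In Gly knockout library 4, the mean log2 level of the class Tryptophan to NAD was 3.87, against 4.12 to 4.26 in the other 5.

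Gly wild type library 1 was the highest of its group in Il18 3.02 FPKM (other 5 libraries 1.28 to 1.62), Pycard 10.7 FPKM (other 5 libraries 3.13 to 5.32), Anxa3 71.8 FPKM (other 5 libraries 38.1 to 48.4) and Timp1 39.95 FPKM (other 5 libraries 22.3 to 28.7). It was also the highest in Lgals1 306 FPKM (other 5 libraries 144 to 170.03), Lcn2 276 FPKM (other 5 libraries 153 to 199), S100a6 205 FPKM (other 5 libraries 83.6 to 108) and Tmsb10 300.2 FPKM (other 5 libraries 128 to 159.6). The same library led in Nnmt 10.9 FPKM (other 5 libraries 4.398 to 5.64), Ubd 27.3 FPKM (other 5 libraries 3.97 to 11.3) and Defb36 15.7 FPKM (other 5 libraries 3.52 to 7.61). It was the lowest in Suclg2 57.1 FPKM (other 5 libraries 71.2 to 75.9). In Gly wild type library 1, the mean log2 level of the class Annexins, S100 and galectins was 6.38, against 5.76 to 5.97 in the other 5. In Gly wild type library 1, the mean log2 level of the class Cytosolic ribosomal proteins was 9.59, against 8.47 to 8.70 in the other 5. Gly wild type library 2 was high in Hspa1a 86.2 FPKM (other 5 libraries 31.2 to 49.7). Gly wild type library 3 was high in Slc6a19 41.02 FPKM (other 5 libraries 20.4 to 26.8). Gly wild type library 5 was the lowest in Col18a1 54.99 FPKM (other 5 libraries 88.5 to 102), G6pc 16.4 FPKM (other 5 libraries 29.9 to 34.7) and Igfbp1 0.771 FPKM (other 5 libraries 1.61 to 2.02). It was the highest in Fga 64.1 FPKM (other 5 libraries 22.7 to 34.5). In Gly wild type library 5, the mean log2 level of the class Myofibroblast and smooth muscle was 3.93, against 4.25 to 4.44 in the other 5. In Gly wild type library 5, the mean log2 level of the class Red cell transcripts was 5.21, against 3.48 to 4.04 in the other 5.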

How the results depend on the processing

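The 2168 calls between Gly knockout and Gly wild type were 3882 with all 24 libraries in the fit, 3374 with the 18 libraries other than saline knockout, 5202 with array weights and 4497 without Gly wild type libraries 1 and 5. With 1 library left out they ran from 1267 to 2656. Pseudocount, scaling and filter alternatives gave 1788 to 2680. The cause was not tested. The wild type Gly calls ranged from 6758 to 9849, and from 7077 to 8484 with 1 library left out. The spread test gave 0 calls except 1 without Gly wild type libraries 1 and 5 together and 0 to 2166 with 1 library left out. The median class loss ranged from 33.5% to 46.4% for rising and from 49.7% to 62.3% for falling classes, or 33.9% to 39.9% and 52.3% to 65.9% with 1 library left out. Of 765 recomputed class losses, 29 in 23 classes moved by over 1 SD. Nlrp3 stayed lower under each alternative run.

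Replicate numbers did not pair the samples: same-numbered Gly libraries deviated together with r = 0.14, 0.13, 0.10, -0.04, -0.00 and -0.13, and 0 of 6 Gly knockout libraries correlated best with its own number. With a replicate block the calls were 1837, and 7470 for the wild type Gly change. Of 191 called features named by the rule, 155 kept the call in every alternative run, 36 lost it in at least 1, and 0 reversed. The unknown depth limits the weakest genes, Nlrp3 included.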
